A study of Mus musculus with 12 samples.

Results

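CTCF binding was compared between the hearts of wild-type mouse embryos and of embryos homozygous for the R567W change in Ctcf. Both groups were on a C57BL/6 background, given as C57BL/6 N in the methods of the study, and were taken at E18.5, and the mutation had been introduced by CRISPR/Cas9 editing of the endogenous gene. Each genotype was represented by 1 CTCF ChIP library with no further treatment, so every difference below compares a pair of libraries and has no replicate check. How many embryos were combined in a library and their sex were not given in the sources used here. Peak regions were taken from the 2 heart lists, and the 21059 wild-type and 11515 mutant regions made up 32574 of the 183882 regions in the 6 lists of the series, which also cover brain and lung. A region was called shared when it overlapped a region of the other heart list by at least 1 bp. This rule left 10394 wild-type-only regions, 820 mutant-only regions, and shared regions that numbered 10665 in the wild-type list and 10695 in the mutant list. Wild-type-only regions thus made up 49.4% of the wild-type list and mutant-only regions 7.12% of the mutant list. With the wild-type list limited to its strongest regions, as many as the mutant list held, 71.3% of wild-type and 71.6% of mutant regions were shared, so these counts rest in part on the length of each list.

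CTCF is a DNA-binding protein with a row of zinc fingers. Its central fingers contact a core motif that is present at most of its sites, and its last fingers can contact a further upstream motif at some of them. Together with the ring-shaped cohesin complex, CTCF marks the anchors of chromatin loops and the boundaries of topologically associating domains, and a subset of its sites lies at promoters. R567 lies in the last zinc finger. Most CTCF sites are occupied in many tissues, and a peak list is therefore a poor guide to the tissue it came from. In these lists, 3 of 16 cardiomyocyte marker genes had a promoter peak in both heart lists, namely Actn2, Ryr2 and Ttn, and the same 3 genes had one in both brain lists. Marker promoters could therefore not be used to check the labelled tissue.

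The total reads of the libraries are not in the peak lists. The genome background recovered from the mutant heart list was 1.11 times that of the wild-type list. The lowest fold enrichment listed was 2.77 for wild type and 2.97 for mutant, and the lowest summit pileup, which is the number of reads, extended to fragments, stacked at the top of a peak, was 8 and 9. A peak missing from a list may still carry signal under these limits.

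Sequences under the strongest peaks of each class are shown first, because they carry the core motif. Most of them match the upstream motif at no better than 3 mismatches, and sites with an exact upstream match follow further on. Each line gives the core motif in capitals and the bases before it in lower case, 5′ to 3′, from GRCm38. Where the stretch touches an annotated untranslated region, only 11 bases precede the core motif. The following 4 lines are wild-type-only peaks at promoters of protein-coding genes.
Abca14, chr7:120204004-120204033, minus strand: caccatcacagCCACGAGGGGACGCTCGTC
Adprhl1, chr8:13254330-13254378, minus strand: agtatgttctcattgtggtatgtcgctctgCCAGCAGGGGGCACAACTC
Vdac1, chr11:52374502-52374550, minus strand: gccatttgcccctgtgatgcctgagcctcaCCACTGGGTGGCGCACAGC
Btbd16, chr7:130773346-130773394, plus strand: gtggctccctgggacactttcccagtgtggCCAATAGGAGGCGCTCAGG

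These 4 lines are promoter peaks shared by wild type and mutant, the strongest of their class by summed rank.
Rapgef1, chr2:29619715-29619744, plus strand: gcggtgggcttCCGGCAGGTGGCGCCGTGG
Nipsnap2, chr5:129724956-129725004, minus strand: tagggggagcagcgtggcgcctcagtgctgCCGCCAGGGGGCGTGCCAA
Alg5 and Exosc8, chr3:54735442-54735490, plus strand: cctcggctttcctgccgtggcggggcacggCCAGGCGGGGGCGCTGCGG
Trp53 and Wrap53, chr11:69579433-69579481, minus strand: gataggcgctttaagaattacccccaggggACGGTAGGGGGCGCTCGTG

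The next 6 lines are mutant-only peaks at promoters of protein-coding genes.
Scpep1, chr11:88955492-88955540, minus strand: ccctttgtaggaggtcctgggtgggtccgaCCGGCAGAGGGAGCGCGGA
Rflnb, chr11:76027824-76027872, plus strand: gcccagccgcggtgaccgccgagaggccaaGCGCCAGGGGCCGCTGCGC
Erap1, chr13:74639032-74639080, plus strand: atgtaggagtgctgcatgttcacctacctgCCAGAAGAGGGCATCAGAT
Fam19a2, chr10:123263916-123263964, plus strand: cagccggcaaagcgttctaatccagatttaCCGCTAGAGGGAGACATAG
Tsc22d1, chr14:76503269-76503317, plus strand: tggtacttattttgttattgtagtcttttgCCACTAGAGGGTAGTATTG
Fbxo43, chr15:36164127-36164175, plus strand: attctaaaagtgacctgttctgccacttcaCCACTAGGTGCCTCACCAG

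Outside promoters, these are the strongest wild-type-only peaks, named by the nearest protein-coding gene.
Dnah17, chr11:118103106-118103154, minus strand: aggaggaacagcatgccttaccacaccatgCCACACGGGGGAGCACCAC
Gapt, chr13:110368721-110368769, minus strand: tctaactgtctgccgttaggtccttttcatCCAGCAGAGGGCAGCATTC
Mocs1, chr17:49468396-49468444, plus strand: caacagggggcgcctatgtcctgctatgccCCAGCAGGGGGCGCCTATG

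Strong and weak wild-type peaks differed in how often the mutant list also held them. The median fold enrichment, which is the ratio of summit pileup to local background as listed by the peak caller, was 7.68 at wild-type-only peaks (quartiles 5.85 and 10.1). At shared peaks it was 11.8 in the wild-type list (9.26 and 14.9) and 10.2 in the mutant list (7.71 and 13.2), and at mutant-only peaks it was 6.50 (4.79 and 8.28). The class seen in a single list was thus the weaker class in either genotype. The median summit pileup was 22 reads at wild-type-only peaks, 36 at shared wild-type peaks, 32 at shared mutant peaks and 19 at mutant-only peaks. Nevertheless, 2185 wild-type-only peaks, or 21.0% (Wilson 95% interval 20.2 to 21.8%), had a wild-type pileup at or above 31 reads, the median of the mutant list. When the wild-type peaks were divided into quintiles of fold enrichment, the share retained in the mutant was 16.6%, 33.3%, 50.7%, 67.4% and 85.2% from the weakest to the strongest.

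Promoter peaks were retained more often than other peaks. Peaks were assigned to a promoter where an annotated transcription start site lay no more than 1 kb from the summit. They made up 14.9% (14.2 to 15.6%) of wild-type-only, 22.1% (21.3 to 22.9%) of shared wild-type and 29.6% (26.6 to 32.8%) of mutant-only peaks. Of 3902 wild-type promoter peaks, 60.4% (58.8 to 61.9%) also appeared in the mutant list. The share was 43.5% (38.8 to 48.2%) in coding exons, 51.4% (47.6 to 55.2%) in other exons, 46.8% (45.7 to 47.9%) in introns and 50.2% (49.1 to 51.4%) in intergenic sequence. Promoter peaks exceeded all other peaks by 12.0 percentage points (Newcombe 95% interval 10.2 to 13.6). This gap was present at every strength. Within the quintiles of fold enrichment it was 11.5, 18.6, 21.0, 21.0 and 11.9 percentage points, and its lowest interval bound was 8.87. Standardised over deciles of fold enrichment, the gap was 17.1 percentage points. With both heart lists limited to the same number of peaks, promoters made up 7.45% of wild-type-only peaks. They then made up 20.5% of shared and 27.8% of mutant-only peaks, and the gap was 19.2 percentage points. Mutant-only peaks were also frequent at promoters, where they made up 9.34% (8.28 to 10.5%) of mutant peaks, against 7.41% (6.67 to 8.24%) in introns, 6.27% (4.21 to 9.23%) in other exons, 5.64% (4.97 to 6.39%) in intergenic sequence and 3.74% (1.82 to 7.52%) in coding exons.

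**Figure D1:**
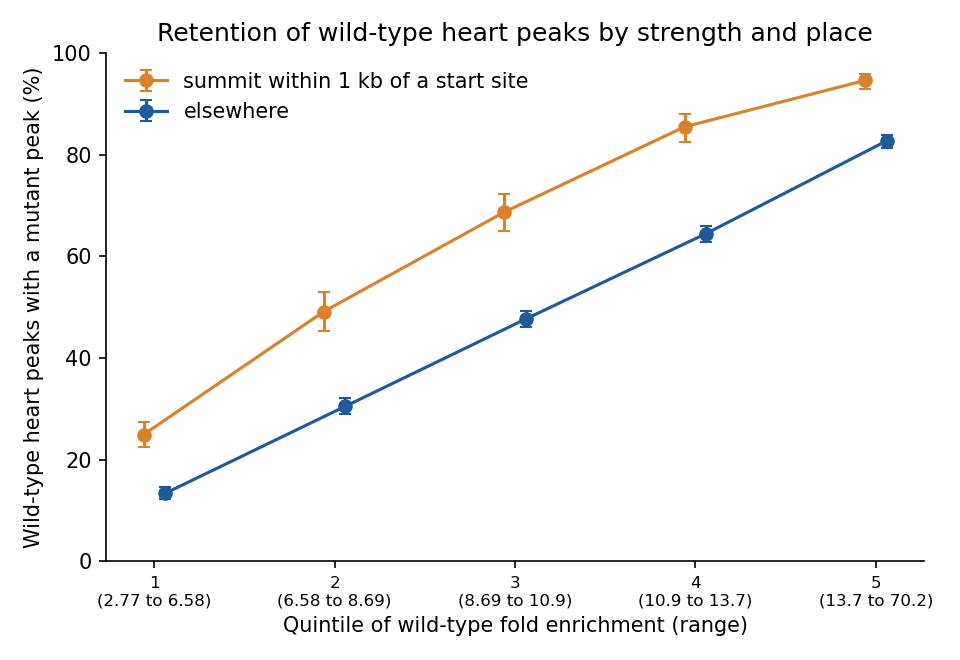
Share of wild-type heart peaks overlapped by a mutant heart peak (percent, vertical axis) in quintiles of wild-type fold enrichment (horizontal axis, with the range of each quintile). Orange points are peaks within 1 kb of a start site, blue points all others, and bars are Wilson 95% intervals, which cover counting error only. Retention climbed from 24.9% to 94.6% at promoters and from 13.4% to 82.7% elsewhere, and the promoter points lie above the others in all 5 quintiles.

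Base composition also differed between retained and unretained peaks. In the quintile of lowest GC content around the summit, 44.5% of wild-type peaks were retained, and in the highest 60.6%. The median distance from the summit to a start site was 9735 bp at wild-type-only peaks, 7407 bp at shared peaks and 6817 bp at mutant-only peaks. More than 50 kb from any start site lay 10.5% (9.92 to 11.1%) of wild-type-only peaks and 7.12% (6.64 to 7.62%) of shared wild-type peaks. GC content is high at promoters, and its part in the promoter difference was not tested.

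Among promoters of protein-coding genes, the strongest peaks that the mutant list lacked lay at genes of varied function. The peak at Abca14, a member of the ABC transporter family, lay at chr7:120203734-120204224 with its summit 33 bp from a start site and had a wild-type fold enrichment of 20.1 and a pileup of 54 reads. At Adprhl1, an ADP-ribosylhydrolase-like gene expressed in heart muscle, the region chr8:13254089-13254700 had a fold enrichment of 18.3 and a pileup of 49 reads. Both promoters were occupied in the mutant brain and the mutant lung, with pileups of 80 and 150 reads at Abca14 and of 38 and 70 reads at Adprhl1. Vdac1, which encodes an anion channel of the mitochondrial outer membrane, had a wild-type fold enrichment of 16.8. Fat1, an atypical cadherin, had 16.5, Spata20 had 17.2 and Btbd16 had 16.5. At Fat1 and Spata20 no core motif was called near the summit. All 6 of these promoters had a mutant peak in both brain and lung. In lung the mutant pileup, not divided by background, was the lower at each of them. Lung fold enrichment was the higher in the mutant at all but Adprhl1. In brain the mutant pileup was lower at Abca14, Spata20 (174 wild-type and 47 mutant reads) and Vdac1 (68 and 40). It was higher in brain at Adprhl1, Fat1 (113 and 132) and Btbd16 (25 and 27).

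The strongest mutant-only peaks at such promoters were weaker. Their fold enrichments ranged from 14.2 at Scpep1, which encodes a serine carboxypeptidase, down to 11.3 at Fbxo43, an inhibitor of the anaphase-promoting complex in meiosis. The region at Scpep1 was chr11:88955320-88955730 with a pileup of 49 reads. Rflnb, a filamin-binding regulator of actin bundles, had 14.0, Erap1, a peptidase that trims antigenic peptides, had 13.7, and the secreted factor Fam19a2 and the leucine-zipper gene Tsc22d1 had 12.2 each. In the other organs, 5 of these 6 promoters had a peak in all 4 lists. Rflnb was listed in the mutant brain and in both lung lists but not in the wild-type brain.

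The promoter peaks that ranked highest over both lists were chosen for being strong in both hearts, so their similar values are a description. At Rapgef1, a nucleotide exchange factor for Rap GTPases, the region chr2:29619297-29620203 had a pileup of 216 wild-type and 211 mutant reads, the highest fold enrichment of the wild-type list at 70.2. Nipsnap2 had 171 and 183 reads. The bidirectional promoter of Alg5 and Exosc8, which act in protein glycosylation and RNA decay, had 149 and 139 reads, and that of Trp53 and Wrap53 had 113 and 132 reads. After division by the background of each list, the log2 ratios of mutant to wild type at these 4 peaks lay between -0.25 and 0.08, and each 95% counting interval included 0.

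Across all 10665 shared peaks the mutant pileup was slightly the lower. The median log2 ratio of normalised pileup was -0.25 (quartiles -0.56 and 0.03). The median was -0.11 when pileup was not divided by background. A ratio of at least 2-fold was more often in the lower direction: 754 shared peaks, or 7.07%, were at least 2-fold lower in the mutant and 20, or 0.188%, at least 2-fold higher. Without the division these counts were 498 and 61. The spike-in correction of the study does not enter a peak list, so the position of the median is relative to the background of each library. Promoters lay closer to equality than other sites, with medians of -0.15 and -0.28. At promoters 5.09% (4.28 to 6.06%) of shared peaks were at least 2-fold lower, and elsewhere 7.63% (7.08 to 8.22%). The summits of shared peaks nearly coincided, with a median distance of 14 bp and 94.3% within 50 bp.

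**Figure D2:**
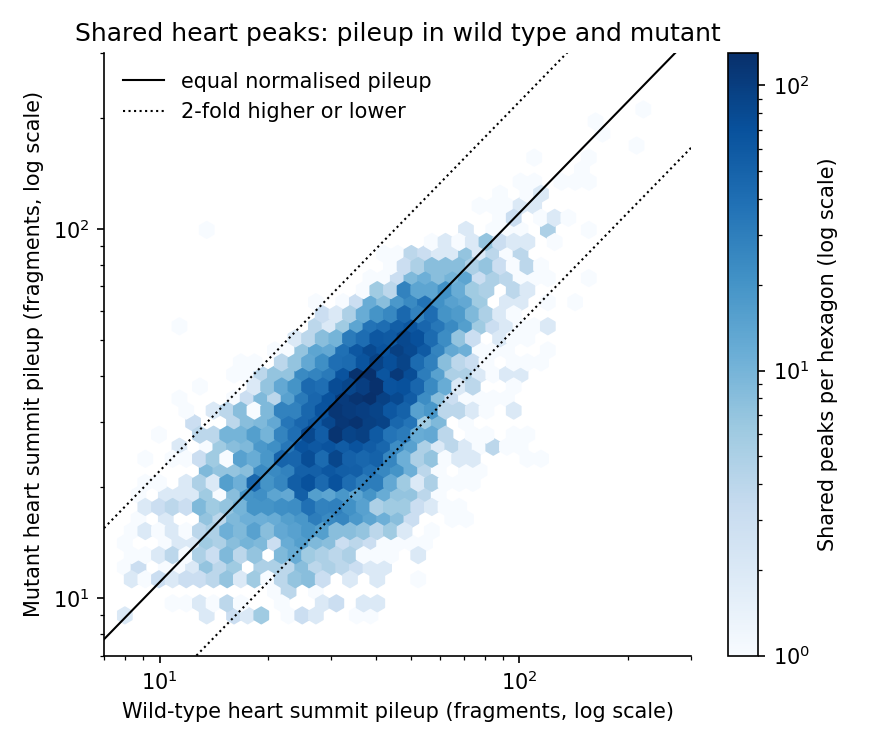
Summit pileup of shared heart peaks in the wild type (horizontal axis, log scale) and the mutant (vertical axis, log scale), with the number of peaks in each hexagon shown by colour on a log scale. The solid line marks equal normalised pileup and the dotted lines a 2-fold difference. The cloud of 10665 peaks lies mostly between the dotted lines, with 754 peaks at or under the lower line and 20 at or over the upper line.

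The extremes among shared promoter peaks were named by a rule that required at least 20 reads in either heart. The lowest ratio was at Lingo2, which encodes a neuronal transmembrane protein, where the pileup was 39 wild-type and 9 mutant reads, a log2 ratio of -2.26 (95% counting interval -3.49 to -1.19). Tex22 had 65 and 16 reads and a log2 ratio of -2.17. Tppp3, a tubulin polymerisation-promoting protein, had 52 and 14 reads and a log2 ratio of -2.04, and Mroh3 had 39 and 11 reads. These 4 promoters carried a clear peak in 1 heart and one near the lower limit of the list in the other. At Tppp3 the upstream motif was matched without a mismatch and ended 9 bp before the core motif. At Mroh3 the best upstream match had 4 mismatches, and at Lingo2 and Tex22 no core motif was called near the summit. In the opposite direction, the peak at Pkn3, a kinase of the PKN family, stood apart. The region chr2:30078150-30078414 had 13 wild-type and 97 mutant reads, a log2 ratio of 2.75 (1.91 to 3.71). In brain the Pkn3 pileup was 284 wild-type and 327 mutant reads, and in lung it was 90 and 564 reads. Dtymk, which encodes thymidylate kinase, had 11 and 34 reads, Naa16 had 10 and 27, and the small GTPase gene Rab1a had 17 and 44. Their log2 ratios were 1.48, 1.29 and 1.22.

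The core motif was then examined. Calls no more than 100 bp from the summit were made at 84.3% (83.5 to 84.9%) of wild-type-only peaks, 95.2% (94.7 to 95.5%) of shared wild-type peaks and 82.3% (79.6 to 84.8%) of mutant-only peaks. In flanking windows of the same peaks it was called at 6.78%, 6.65% and 5.98%. Wild-type peaks with the core motif were retained in 53.7% of cases (53.0 to 54.4%) and those without it in 24.0% (22.3 to 25.9%). At promoters the corresponding shares were 68.7% and 33.1%, and elsewhere they were 50.9% and 17.3%. A promoter peak without a core motif was therefore retained more often than another peak without one.

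The match to the upstream motif TGCAGTNCC, in which N is any base, was graded by mismatches within the 30 bp before the core motif on the same strand. Where the core motif was present, 25.6% (21.9 to 29.7%) of the 473 with an exact match were retained. The share was 42.1% (39.5 to 44.9%) with 1 mismatch, 51.0% (49.3 to 52.7%) with 2, 55.1% (54.0 to 56.2%) with 3, 58.0% (56.7 to 59.2%) with 4 and 56.3% (51.7 to 60.9%) at the 442 peaks with 5. In the mirrored window after the core motif, the share was 57.6% (51.6 to 63.3%) with 1 mismatch, 53.1% with 2, 54.0% with 3 and 53.4% with 4. Only 10 peaks had an exact mirrored match, of which 4 were retained. Retention was thus lower at each closer upstream match from 4 mismatches down to none, and the mirrored window showed no such order.

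**Figure D3:**
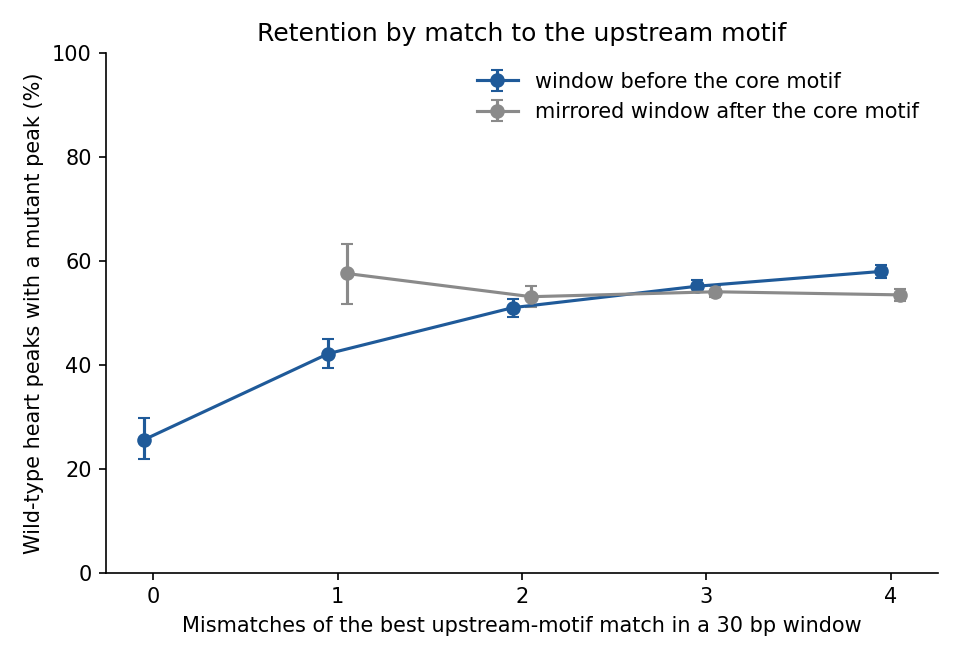
Share of wild-type heart peaks with a core motif that were overlapped by a mutant heart peak (percent, vertical axis) against the mismatches of the best upstream-motif match (horizontal axis). Blue points are the window before the core motif, grey points the mirrored window after it (levels with under 20 peaks are left out), and bars are Wilson 95% intervals. Blue points climb from 25.6% at an exact match to 58.0% at 4 mismatches, the last level drawn, while the grey points stay between 53.1% and 57.6%.

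The upstream difference held at every peak strength. In the 5 quintiles of fold enrichment, peaks with at most 1 mismatch were retained in 5.64%, 16.8%, 33.1%, 53.2% and 74.0% of cases, and peaks with over 2 mismatches in 21.2%, 37.6%, 56.0%, 71.7% and 88.5%. The differences lay between -22.9 and -14.6 percentage points. With a limit of 2 mismatches the upstream motif was called at 30.8% (29.8 to 31.8%) of wild-type-only peaks with a core motif, 23.0% (22.2 to 23.8%) of shared wild-type peaks and 16.6% (14.0 to 19.6%) of mutant-only peaks. Called in the same way, the mirrored window gave 13.5%, 13.4% and 11.1%. Retention with and without the motif differed by -9.95 percentage points (-11.6 to -8.34) over all peaks, by -5.37 (-9.53 to -1.32) at promoters and by -9.92 (-11.6 to -8.19) elsewhere, and by -0.18 (-2.27 to 1.90) for the mirrored window. Among wild-type peaks with at most 1 mismatch, 68.4% had the upstream motif end 8 bp before the core motif.

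Among shared peaks, the ratio of mutant to wild-type pileup was also lower at closer upstream matches. The median log2 ratio was -0.46 at the 121 shared peaks with an exact match, -0.41 with 1 mismatch, -0.30 with 2, -0.25 with 3 and -0.21 with 4. The share at least 2-fold lower in the mutant was 17.4% (11.6 to 25.1%), 13.1%, 8.35%, 6.59% and 5.25%. The median wild-type pileup was 40, 39, 38, 36 and 34 reads, while the median mutant pileup was 32, 32, 33, 33 and 32 reads. Shared peaks had to pass the threshold of the mutant list, and the part of that in this order was not tested.

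To show what such a site looks like, the 4 strongest wild-type-only and the 4 strongest shared peaks with an exact match outside untranslated regions are given below. They were chosen after their values were seen. Capitals mark the upstream motif and then the core motif. The first 4 lines are wild-type-only peaks.
Intron near Crebbp, chr16:4316245-4316293, plus strand: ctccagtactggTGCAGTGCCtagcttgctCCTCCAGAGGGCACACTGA
Promoter of the lincRNA Gm13832 near Cox6a1, chr5:115359002-115359050, plus strand: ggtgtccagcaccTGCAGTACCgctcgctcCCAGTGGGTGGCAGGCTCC
Intergenic near Trim29, chr9:43287084-43287132, plus strand: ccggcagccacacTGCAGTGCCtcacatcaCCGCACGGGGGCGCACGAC
Intron near Zfpm1, chr8:122259537-122259585, minus strand: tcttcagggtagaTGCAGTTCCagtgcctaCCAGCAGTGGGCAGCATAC

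The 4 shared peaks are these.
Promoter of the lincRNA Gm38563, chr15:61157670-61157718, plus strand: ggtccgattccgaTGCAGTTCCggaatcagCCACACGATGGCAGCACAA
Intron near Psmd6, chr14:14098774-14098822, minus strand: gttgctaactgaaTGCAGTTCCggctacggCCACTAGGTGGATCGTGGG
Intergenic near Kazn, chr4:142248583-142248631, minus strand: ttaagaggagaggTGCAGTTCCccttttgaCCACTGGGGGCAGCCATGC
Promoter of Slc39a13, chr2:91070566-91070614, plus strand: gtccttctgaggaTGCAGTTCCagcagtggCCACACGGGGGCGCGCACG

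The wild-type fold enrichment was 31.4 at the site 102275 bp from the start of Crebbp, a histone acetyltransferase gene, and 24.3 at the site 10064 bp from Cox6a1. It was 17.9 at the site 23734 bp from Trim29 and 17.5 at the site 22593 bp from Zfpm1, whose product is a cofactor of GATA factors in heart and blood. Among the shared peaks the pileup was 77 wild-type and 37 mutant reads at Gm38563, 68 and 23 near Psmd6, 61 and 38 near Kazn, and 60 and 79 at Slc39a13, a zinc transporter gene. Of these shared peaks, 3 thus had the lower pileup in the mutant heart, and Slc39a13 had the higher. Fold enrichment was the lower in the mutant at each of them, and at Slc39a13 it was 22.3 in wild type and 18.3 in the mutant. All 8 sites had peaks in both genotypes of brain and of lung.

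Genes with a role in the heart were then considered by their promoters. Of 21911 protein-coding genes, 3192 had a wild-type heart promoter peak. The mutant list held a shared promoter peak at 2012 of them, and 1169, or 36.6%, had no mutant promoter peak and are called lost here, meaning only that the list lacked one. At 11 others a mutant-only peak took the place of the wild-type peak. A further 207 genes had a mutant-only promoter peak and no wild-type one, and are called gained. Over the 5 heart lists used here, which cover transcription factors, the sarcomere, calcium handling and ion channels, energy metabolism, and trabeculation and compaction, 39.5% (26.4 to 54.4%) of the promoters with a wild-type peak were lost. That share is close to the 36.6% of all genes. When both heart lists were limited to the same number of peaks, 1 of 16 promoters of these lists was lost, or 6.25% (1.11 to 28.3%), against 141 of 1556 of all genes, or 9.06% (7.73 to 10.6%). Peaks were also counted over each gene with 10 kb on either side, beside 50.6% retained among all wild-type peaks.

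**Figure D4:**
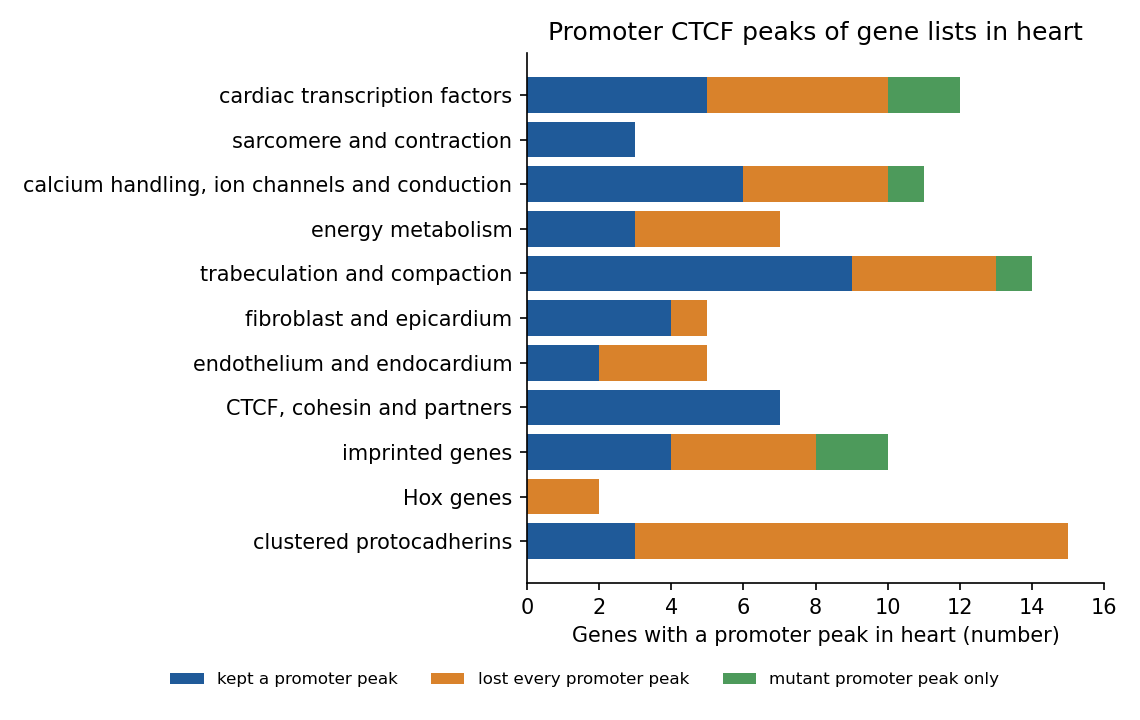
Number of genes with a promoter peak in heart (horizontal axis) for 11 gene lists (vertical axis). Blue bars are genes that kept a shared promoter peak, orange bars genes with a wild-type promoter peak and no mutant one, and green bars genes with a mutant promoter peak only. The clustered protocadherins show the longest orange bar, 12 of 15 genes, and the lists of the sarcomere and of CTCF and cohesin show none.

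Among 40 cardiac transcription factor genes, 10 had a wild-type promoter peak, of which 5 were kept and 5 lost, and 2 were gained. Among those lost were Gata6, a zinc finger factor of heart development, with a fold enrichment of 8.77, Gata4 with 3.73, Tead1 with 3.66 and Hey1 with 3.28. Gata4, Tead1 and Hey1 therefore lay near the lower limit of the list. Kept were Tbx3, with 31 wild-type and 27 mutant reads, Srf with 18 and 23, Prdm16 with 15 and 11, Mef2d with 16 and 11, and Ppara with 21 in each. Gained were Nfatc1 and Tbx1, with mutant fold enrichments of 3.20 and 3.76. Over the genes with 10 kb on either side, 33 of 62 wild-type peaks of this list were retained, or 53.2% (41.0 to 65.1%).

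The sarcomere list had few promoter peaks, and none was lost. Of 40 genes, 3 had a wild-type promoter peak and all 3 were kept, which allows a lost share of up to 56.1%. Ttn, the giant spring of the sarcomere, had 34 wild-type and 26 mutant reads, Tpm1 had 56 and 61, and Actn2 had 22 and 13. Over gene bodies with their flanks, 42 of 66 wild-type peaks were retained, or 63.6% (51.6 to 74.2%).

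Calcium handling and ion channel genes showed both outcomes. Of 10 promoters with a wild-type peak, 6 were kept, 4 lost and 1 further gene was gained. Among those kept were Kcnj11, a subunit of the ATP-sensitive potassium channel, with 53 and 47 reads, and Ryr2, the calcium release channel of the sarcoplasmic reticulum, with 36 and 39. Cacna1c, the L-type calcium channel, had 24 and 22 reads. Lost were Cacna1h with a fold enrichment of 7.94, Gjc1 with 5.82, Atp2a2, the calcium pump of the sarcoplasmic reticulum, with 5.27, and Cacnb2 with 3.46. The gained gene was Asph, with a mutant fold enrichment of 9.40 and 32 reads. Over gene bodies with their flanks, 50 of 85 wild-type peaks of the list were retained, or 58.8% (48.2 to 68.7%).

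In energy metabolism, 3 of 7 promoters were kept and 4 were lost. Slc2a4, the insulin-responsive glucose transporter, had 56 wild-type and 57 mutant reads, Uqcrc1, a subunit of respiratory complex III, had 39 and 60, and Acadvl had 18 and 19. Lost were Uqcrc2, another subunit of that complex, with a fold enrichment of 7.42, the coactivator Ppargc1b with 3.64, the nucleotide exchanger Slc25a4 with 3.29 and Acsl1 with 2.91. At Pdk2 a shared region had its summit within 1 kb of the start site in the mutant alone, with 29 reads. Over gene bodies with their flanks, 36 of 64 wild-type peaks were retained.

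Genes of trabeculation and compaction, the remodelling that builds the ventricular wall, kept 9 of 13 promoter peaks. Vegfa had 51 wild-type and 52 mutant reads, the Notch ligand Jag1 had 43 and 31, Wnt11 had 40 and 44, and Erbb3 had 40 and 30. The neuregulin gene Nrg1 had 31 and 25. The 4 lost promoters were Ephb4 with a fold enrichment of 5.12, Adamts1 with 4.75, and Smad7 and Tgfb2 with 4.02 each. All 4 thus lay under the median of the wild-type-only peaks. Daam1 was gained, with a mutant fold enrichment of 4.33. Over gene bodies with their flanks, 52 of 109 wild-type peaks were retained, or 47.7% (38.6 to 57.0%), and 37 of the 109 lay in the 2.96 Mb annotated for Fgfr2 and its flanks.

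Other cell types of the heart were represented by 2 lists. Of 5 fibroblast and epicardial promoters, 4 were kept, among them Col1a1 with 64 and 56 reads, Pdgfra with 52 and 50, Sema3d with 42 and 34, and Aldh1a2 with 29 and 27, and Col5a1 was lost with a fold enrichment of 4.86. Of 5 endothelial promoters, 2 were kept, namely Ets2 with 47 and 35 reads and S1pr1 with 13 and 14. Egfl7, Npr3 and Erg were lost, with fold enrichments of 6.98, 5.48 and 5.12. The interval of the lost share was 3.62 to 62.4% for the fibroblast and epicardial list and 23.1 to 88.2% for the endothelial list. These intervals overlapped, and each included the 36.6% of all genes. Over gene bodies with their flanks, 21 of 40 wild-type peaks of the former list and 20 of 36 of the latter were retained. In whole tissue, a lower share of a cell type and lower binding per cell cannot be told apart.

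Of 26 genes of the CTCF and cohesin machinery, 7 had a wild-type promoter peak and all 7 were kept. The lost share of 0 had an interval up to 35.4%, beside 36.6% of all genes. Their wild-type fold enrichments ranged from 10.6 to 25.5, strengths at which 68.7% to 94.6% of all promoter peaks were retained in the quintiles above. Over gene bodies with their flanks, 22 of 34 wild-type peaks were retained, or 64.7% (47.9 to 78.5%), and Ctcf itself kept 1 of 3. At its promoter, Ctcf had 33 wild-type and 24 mutant reads, and the cohesin subunits Stag1, Stag2 and Smc3 had 69 and 78, 28 and 51, and 36 and 31. Esco1, Pds5a and Pds5b, which regulate cohesin, were kept as well.

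Imprinted genes, at some of which CTCF binds a single parental allele, kept 4 of 8 promoter peaks. Kept were H13 with 35 and 62 reads, Commd1 with 27 and 10, Peg12 with 17 and 13, and Peg13 with 19 and 22. Lost were Mest with a fold enrichment of 10.9, Ube3a with 6.22, Igf2 with 4.76 and Gnas with 3.42. A single mutant-only peak at the bidirectional promoter of Peg10 and Sgce, with 20 reads, accounted for the 2 gained genes. Both Hox promoters with a wild-type peak were lost, namely Hoxa10 with a fold enrichment of 16.3 and Hoxc5 with 8.50. The interval of the lost share was 21.5 to 78.5% for the imprinted list and 34.2 to 100% for the Hox list. Each interval included the 36.6% of all genes. With gene bodies and flanks included, 30 of 48 wild-type peaks of the imprinted list and 9 of 18 of the Hox list were retained. Their intervals, 48.4 to 74.8% and 29.0 to 71.0%, included the 50.6% of all wild-type peaks.

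The clustered protocadherins, adhesion genes whose promoters are chosen with the help of CTCF, had the largest number of lost promoters among the 11 lists. Of 15 promoters with a wild-type heart peak, 12 were lost, or 80.0% (54.8 to 93.0%), against 36.6% of all genes. Apart from Pcdhac1 these were all genes of the gamma cluster. No gene of the beta cluster had a listed wild-type heart peak, so the count does not cover that cluster. Many of these peaks were weak, with wild-type fold enrichments from 3.66 to 13.9 and a median of 6.83, and in the lowest quintiles of strength 24.9% and 49.1% of all promoter peaks were retained. The family was listed with earlier results of these data known, and its members lie side by side on 1 chromosome, so they are not independent. With gene bodies and flanks included, 3 of 18 wild-type peaks were retained, or 16.7% (5.84 to 39.2%). Kept were Pcdhgc3 with 35 reads in each heart, Pcdhgb5 with 28 and 17, and Pcdhgb4 with 17 and 30. The strongest of those lost were Pcdhgb7 with a fold enrichment of 13.9, Pcdhga12 with 9.87, Pcdhga11 with 9.51 and Pcdhgb6 with 7.76.

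Outside promoters, the strongest wild-type-only peaks exceeded every wild-type-only promoter peak named above. An intronic peak at chr11:118102721-118103492, whose nearest protein-coding start site is that of the dynein gene Dnah17 at 26143 bp, had a fold enrichment of 36.6 and 99 reads. Another, 11610 bp from the start of Gapt, had 35.8 and 97 reads, and an intronic peak 40025 bp from the start of Mocs1, at chr17:49468218-49468805, had 33.3 and 90 reads. These sites were also occupied in the mutant brain and lung, with lower pileups than in wild type. Near Dnah17 the pileup was 145 wild-type and 63 mutant reads in brain and 498 and 232 in lung. Near Gapt it was 306 and 46 in brain and 406 and 64 in lung. Near Mocs1 it was 80 and 46 in brain and 370 and 103 in lung. These pileups were not divided by background, and lung fold enrichment was the higher in the mutant at each site. The strongest mutant-only peaks outside promoters were intergenic and had mutant fold enrichments of 20.5, 15.7 and 15.6. Their nearest protein-coding start sites were those of Sncaip at 118639 bp, Vps13c at 174866 bp and Jchain at 8466 bp. Each had a peak in the other 4 lists.

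The brain and lung lists were consulted for every heart class. A mutant peak in brain or lung overlapped 89.0% (88.4 to 89.6%) of wild-type-only heart peaks, and a mutant peak in each of them overlapped 73.1% (72.2 to 73.9%). Among shared heart peaks the latter share was 98.9% (98.7 to 99.1%). Most mutant-only heart peaks were likewise known from elsewhere: 94.9% (93.1 to 96.2%) overlapped a wild-type peak of brain or lung. Peaks in none of the other 4 lists made up 2.31% (2.04 to 2.62%) of wild-type-only, 0.0281% of shared and 2.32% (1.49 to 3.59%) of mutant-only heart peaks.

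**Figure D5:**
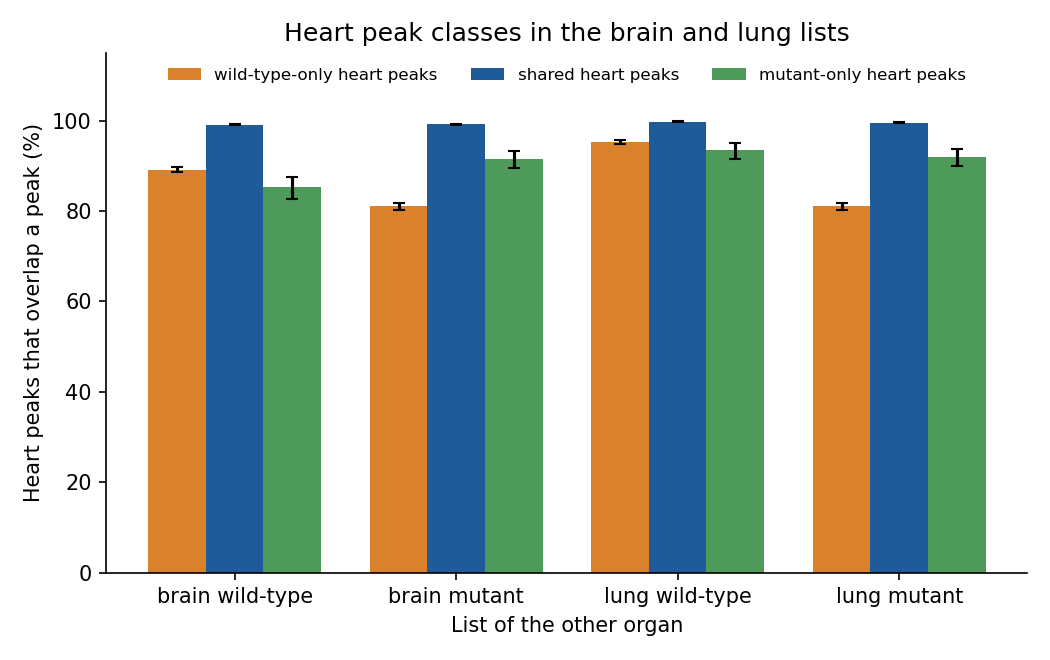
Share of each class of heart peak (percent, vertical axis) that overlapped a peak in the 4 lists of brain and lung (horizontal axis). Orange bars are wild-type-only, blue bars shared and green bars mutant-only heart peaks, with Wilson 95% intervals. Shared peaks are at 99.2% or more in all 4 lists, and wild-type-only peaks are at 81.0% in either mutant list and at 89.2% and 95.3% in the wild-type lists.

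How far the upstream motif marked peaks that were missing beyond the heart was examined at 9120 wild-type-only heart peaks with wild-type peaks in brain and lung. At 79.4% (78.6 to 80.2%) a mutant peak was present in both other organs, and at 6.81% (6.31 to 7.34%) in neither. An upstream match with at most 1 mismatch was found at 11.5% (10.8 to 12.3%) of the core-motif sites of the former group and at 22.8% (19.2 to 26.7%) of the latter, with 17.4% and 17.1% where only brain or only lung had a mutant peak. The intervals of these last groups, 14.4 to 20.8% and 14.1 to 20.6%, overlapped that of the sites missing in every organ. The sites present in both other organs had a median wild-type heart fold enrichment of 8.41, and those present in neither 6.95.

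The X chromosome differed from the autosomes in heart. Of 345 wild-type peaks on it, 29.0% (24.5 to 34.0%) were retained, against 51.0% (50.3 to 51.7%) of autosomal peaks, and single autosomes ranged from 48.0% to 53.4%. Peaks of the X chromosome were weaker, with a median wild-type fold enrichment of 7.31 against 9.85, and held the upstream motif at 33.2% of core sites against 26.5%. With the autosomal retention of each strength quintile applied to the strengths of X-linked peaks, 34.6% would be retained, just above the upper bound of the X-linked share. The X-linked share was the lower in 4 of 5 quintiles of strength. In the weakest quintile its interval, 10.7 to 23.3%, included the autosomal 16.7%, and in the next its interval, 17.9 to 33.8%, included the autosomal 33.5%. In the middle quintile 36.4% (25.8 to 48.4%) of X-linked and 50.9% of autosomal peaks were retained. In the strongest, 66.7% of 12 X-linked peaks were retained, with an interval of 39.1 to 86.2% that included the autosomal 85.2%. The exception was the fourth quintile, with 79.2% (59.5 to 90.8%) of 24 X-linked and 67.4% of autosomal peaks. In brain, 78.3% of X-linked and 81.6% of autosomal wild-type peaks were retained, and in lung 62.5% and 67.1%. The part of embryo sex in this difference was not tested. This comparison was added after the data were seen.

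Runs of neighbouring peaks with the same outcome were listed as a description, and whether they are longer than the overall share of missing peaks would give was not tested. The longest run of consecutive wild-type peaks without a mutant peak held 19 peaks on the X chromosome (chrX:60504087-73593594). On autosomes the longest runs held 15 peaks each, at chr12:113187412-117353399, a stretch that includes the immunoglobulin heavy chain locus, and at chr5:41887774-43990725, between Bod1l and Fgfbp1. A run of 14 peaks reached from Sox17 to Pcmtd1 on chromosome 1, and a run of 11 on chromosome 18 ended at Pcdhga6. Conversely, 15 consecutive peaks were retained at chr10:80114433-80350717, between Stk11 and Adamtsl5. The median fold enrichment of the lost runs named here lay between 6.77 and 10.2, and that of the 5 longest retained runs between 10.6 and 13.4.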

How the data were processed

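CTCF ChIP-seq peaks of heart tissue were compared between 1 wild-type and 1 homozygous R567W library, with the brain and lung lists as reference. Input libraries were not used here as files. Per the labels and the study's methods, chromatin from HEK293T, a human kidney cell line, was added as a spike-in, and the authors used Trim Galore for trimming and Bowtie2 for alignment to a combined mouse (mm10) and human (hg38) genome, kept uniquely mapped reads and called peaks with MACS2 on each library at default options. Spike-in factors do not enter these lists, and which input served as control is not given in the sources used here.

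The deposited columns were the fold enrichment, a ratio of summit pileup to local background with a pseudocount of 1, p-values and q-values as −log10 values, a score derived from the q-value and not used, and the summit offset. Each region entered once, represented by its summit of greatest enrichment. Pileup and background were recovered from fold enrichment and p-value, which solved 100% of regions, and pileup was divided by the lowest background of its list.

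Overlaps were made with bedtools 2.31.1 and genes came from GENCODE M21 on GRCm38, which all positions fitted. The core motif was a matrix of 19 columns learned from 1888 sites of the 2000 strongest wild-type brain peaks, called at p of 1e-04 or less within 100 bp of the summit, with windows 1100 bp away as background. The equal base frequencies and the first column of the matrix were chosen after looking at these data. The upstream motif allowed 2 mismatches within 30 bp before the core motif. Tested on simulated data, the upstream search found 100% of 1000 planted motifs and called 8.8% of windows that lacked one. The planted motifs were exact and at a fixed spacing, so the search rule ensured that they were found. The simulated bases were random with equal frequencies, and the core motif was called with the starting matrix before learning. In wild-type heart peaks with a core motif, the mirrored window was called at 13.4%. Shares carry 95% Wilson and differences 95% Newcombe intervals, which cover counting error over peaks only. With 1 library per genotype no test was made.

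Named peaks were chosen by rule: at promoters of protein-coding genes, the strongest 6 wild-type-only, 6 mutant-only and 4 shared peaks and the 4 lowest and 4 highest ratios, up to 4 lost and 4 kept genes and every gained gene of a list, and the strongest 3 of each class elsewhere. Further kept genes were chosen after their values were seen. Some genes that the rule would name are not reported here. Members and lists were chosen with earlier results of these data known. Alternatives varied the q-value limit, overlap, list length, chromosomes, promoter distance, motif settings and normalisation. Scripts ran in Python 3.11.15 with scipy 1.17.1, pandas 2.3.3, numpy 2.4.6 and matplotlib 3.10.9.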

Additional observations from a re-analysis of the deposited data

Results flagged for a closer look

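The number of listed peaks went in opposite directions in brain and heart. In brain the mutant list was the longer, with a log2 ratio of 0.091 to the wild-type list, and in heart the shorter, with -0.87, with 1 library per organ and genotype, and the difference was not tested. Lung had -0.45, in the direction of heart.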

How the results depend on the processing

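No paired analysis was possible because each group held 1 library, and for the same reason no library could be left out. Of 74 alternatives, 37 gave a value within the counting interval of the reported one, 37 lay outside it or, for counts, differed by over 1.5 times and none changed a sign. With both heart lists limited to the same number of peaks, the retained share was 71.3%, the share of mutant peaks with a wild-type peak 71.6%, the promoter share 7.45% of wild-type-only and 20.5% of shared peaks, the promoter gap 19.2 percentage points, the share of wild-type-only peaks with a mutant peak in brain or lung 96.0%, the median log2 ratio -0.30 and the lost share of heart-list promoters 6.25%. That of all protein-coding genes was then 9.06%. With a −log10 q of at least 5 these were 52.5%, 93.6%, 12.3% for wild-type-only promoters, a gap of 15.9 and 91.5% in brain or lung. With 50% overlap of each region the values were 46.8%, 85.5%, 15.9%, a gap of 9.40, 84.5% and a median of -0.24. With the summit rule the brain or lung share was 88.1%. On the X chromosome alone the retained share was 29.0%. With a promoter distance of 2 kb the promoter shares of wild-type-only, shared and mutant-only peaks were 20.8%, 28.3% and 36.5% and the gap was 10.1, and with 500 bp the shares were 10.7%, 16.8% and 24.1%. Standardised over deciles of pileup the promoter gap was 15.5, and over deciles of fold enrichment it was 17.1. The upstream difference was -12.4 percentage points when standardised over fold enrichment, -17.7 with at most 1 mismatch and -13.0 at a spacing of 7 to 9 bp. Without division by background the median log2 ratio was -0.11, with 498 shared peaks at least 2-fold lower and 61 at least 2-fold higher. The all-gene share, these counts and the X chromosome were added after seeing the data. Motif settings also chosen then, namely a stricter motif p of 1e-05, genome base frequencies, and a matrix started 3 bases earlier, gave upstream differences of -8.64, -9.87 and -9.67. The genome base frequencies raised the core motif to 94.8% of wild-type peaks and 14.2% of flanking windows, from 89.8% and 6.71%. The cause of these shifts was not tested.

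The lowest listed pileups were 8 and 9 reads, and weaker binding would not be listed, so a missing peak is not an absence of binding. Total reads were not in the lists. With 1 library per genotype, a difference between libraries and one between genotypes cannot be told apart.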
